A study of Mus musculus with 6 samples.

Results

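The epiblast factors examined here are 10 genes that mark or drive the step by which pluripotent cells leave the naive state of the early blastocyst and take on the formative and then the primed state of the implanting epiblast. The genes are Fgf5, Otx2, Pou3f1, Sox3, Sox4, Zic2, Zic5, Sall2, Foxd3 and Cdh2. They were found by gene symbol among the probe sets (groups of short probes that read 1 transcript) of a mouse expression array, where 11 of 35557 probe sets carry a single symbol that is one of these names. All 10 genes were found, of 19938 genes with a probe set of their own. Zic5 has 2 probe sets and every other gene has 1. All 11 probe sets were above 3.78 on all 6 arrays, and so all of them passed the filter on low values.

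RNA came from undifferentiated mouse embryonic stem (ES) cells, a cultured form of the blastocyst's pluripotent cells, on 6 arrays of the Affymetrix Mouse Gene 1.0 ST type. Hira-null arrays (Hira-/-, clone Cl34) number 3, and WT arrays of the parental line w9.5 number 3. HIRA is a histone chaperone that places the histone variant H3.3 into chromatin outside DNA replication. Both lines grew in serum medium with the LIF supplement ESGRO, and the design text says that cells were taken at different degrees of confluence, without tying a degree to an array. Since 1 Hira-null clone was measured, loss of Hira and other differences between the clone and its parent cannot be told apart. The labels call the arrays biological replicates and do not name separate cultures, so p-values reflect the spread among these samples alone, some of which may be technical. The question is whether ES cells without HIRA differ from the parental line in this set of transition genes.

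As background, naive ES cells in serum and LIF are a mixed population, in which some cells begin to express formative genes. OTX2, a homeodomain factor, acts together with OCT4 (encoded by Pou5f1) at the enhancers of formative genes. ZIC and FOXD3 proteins also bind such enhancers, FGF signalling through ERK drives the transition, and FGF5 is its classical marker. Several members are used again later in the nervous system, which is why they are also neural markers.

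RefSeq promoter windows (250 bases before to 50 bases after a start site, build GRCm38.p6) were searched for 6 of the 10 members. These were Foxd3, Fgf5, Sox4, Otx2, Sall2 and Zic5, matched by symbol, with 10 windows in all. Zic2, Pou3f1 and Sox3 had no window in the RefSeq set used. Cdh2 was left out of the search beforehand, so the motif counts say nothing about it. Otx2, Foxd3 and Zic5 are shown because their values, for Zic5 those of 1 of its 2 probe sets, differed widely between arrays of the same line. Fgf5 and Sox4 are shown because theirs did not. Each is printed 5′ to 3′ on the strand of the gene, and capitals mark the motif matches. The first Otx2 window is chr14:48667595-48667894 on the minus strand, the third Otx2 window is chr14:48665060-48665359 on the minus strand, Foxd3 is chr4:99656049-99656348 on the plus strand, Zic5 is chr14:122465609-122465908 on the minus strand, Fgf5 is chr5:98253934-98254233 on the plus strand, and Sox4 is chr13:28953650-28953949 on the minus strand.
Otx2 window 1: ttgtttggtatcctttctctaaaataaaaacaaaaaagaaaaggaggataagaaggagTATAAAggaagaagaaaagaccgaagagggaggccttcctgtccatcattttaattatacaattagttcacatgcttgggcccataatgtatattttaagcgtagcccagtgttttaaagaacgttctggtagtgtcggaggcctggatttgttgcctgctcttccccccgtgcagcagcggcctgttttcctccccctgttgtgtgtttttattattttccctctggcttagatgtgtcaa
Otx2 window 3: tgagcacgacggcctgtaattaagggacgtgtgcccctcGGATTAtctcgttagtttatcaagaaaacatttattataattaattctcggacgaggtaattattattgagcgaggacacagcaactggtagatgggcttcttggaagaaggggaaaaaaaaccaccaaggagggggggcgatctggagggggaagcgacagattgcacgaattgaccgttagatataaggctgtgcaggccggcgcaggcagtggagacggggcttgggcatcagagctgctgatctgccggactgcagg
Foxd3: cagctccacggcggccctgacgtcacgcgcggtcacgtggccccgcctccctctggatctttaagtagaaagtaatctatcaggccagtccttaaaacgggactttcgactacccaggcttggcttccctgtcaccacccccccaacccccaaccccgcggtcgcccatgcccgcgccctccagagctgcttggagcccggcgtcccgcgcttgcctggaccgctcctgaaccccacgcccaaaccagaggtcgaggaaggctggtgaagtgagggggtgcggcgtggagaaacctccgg
Zic5: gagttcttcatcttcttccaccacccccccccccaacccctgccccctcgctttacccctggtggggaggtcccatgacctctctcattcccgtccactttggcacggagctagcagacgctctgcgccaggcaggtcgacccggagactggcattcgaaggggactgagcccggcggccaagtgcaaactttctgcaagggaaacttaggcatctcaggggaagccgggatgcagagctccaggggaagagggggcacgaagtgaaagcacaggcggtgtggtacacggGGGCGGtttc
Fgf5: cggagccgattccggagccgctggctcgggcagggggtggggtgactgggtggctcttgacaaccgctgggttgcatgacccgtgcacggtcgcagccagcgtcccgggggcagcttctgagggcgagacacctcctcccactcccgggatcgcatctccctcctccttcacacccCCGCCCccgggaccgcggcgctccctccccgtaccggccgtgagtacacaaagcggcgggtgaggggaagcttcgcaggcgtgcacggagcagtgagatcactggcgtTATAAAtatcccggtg
Sox4: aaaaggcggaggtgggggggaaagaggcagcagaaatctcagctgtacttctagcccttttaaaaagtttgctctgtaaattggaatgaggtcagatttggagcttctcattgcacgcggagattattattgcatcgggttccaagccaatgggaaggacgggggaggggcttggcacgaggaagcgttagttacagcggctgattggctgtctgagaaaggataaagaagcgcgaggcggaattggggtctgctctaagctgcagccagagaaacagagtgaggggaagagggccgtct

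A search for 6 short motifs on both strands found few of them in these windows. The motifs were the octamer ATGCAAAT, the SOX core CATTGT, the OTX core TAATCC, the GC box GGGCGG, the TATA box TATAAA and the E-box CACCTG, and no motif lies within another. The third Otx2 window holds the OTX core, as its reverse complement GGATTA, 211 bases before the start site; 7.06% of all 32851 windows in the RefSeq table hold this motif. The letters of the TATA box are in the first Otx2 window, in that of Fgf5 and in 1 Sall2 window (13.6% of all windows). They lie 192 bases before the start site in Otx2, 35 after it in Fgf5 and 145 before it in Sall2. A GC box is in the windows of Zic5 and Fgf5 (35.7%). The Foxd3 and Sox4 windows hold none of the 6. None of the 10 windows searched holds the octamer (1.74% of all windows) or the SOX core (12.6%). The E-box (20.2%) is in the other Sall2 window, and the Sall2 windows are not printed. Foxd3, Zic5 and Fgf5 windows are rich in G and C, at 65.7%, 62.7% and 68.3%, against a median of 52.7% over all windows, while the first Otx2 window is at 41.7%. Windows with and without matches occur both among the genes with a wide spread and among those with a narrow one, and a match or its lack describes the window only.

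Values are on the log2 scale of the deposited table, differences are Hira-null minus WT, and 1 unit is a doubling. Array medians were 4.93 to 5.02. Levels of different probe sets are not compared, since their probes respond differently. Hira itself read 7.40, 7.05 and 6.81 in the Hira-null arrays and 7.49, 7.86 and 7.83 in the WT arrays, without overlap, and its difference of -0.64 did not pass (limma, adjusted p = 0.352). Which exons the null allele lacks is not stated, so the probe set may read a part that is still present. Defining markers of ES cells were far above the filter on every array: Pou5f1 read 11.35 to 11.58 in Hira-null and 10.91 to 11.45 in WT arrays, and Nanog 10.70 to 11.12 and 10.78 to 10.98. Arrays also differed within a line. On principal component 1 (41.7% of the variance of all kept probe sets) Hira-null replicate 3 stood at 65.6 and the other 5 arrays between -32.0 and 1.95.

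Between the lines, 0 of the 11 probe sets of the epiblast factors passed the test (limma, Benjamini-Hochberg over 25142 probe sets, threshold 0.05), while 0.00398% of all probe sets tested passed, which is 1 probe set and no member. At an unadjusted p under 0.05 there was 1 member, Cdh2, lower in Hira-null arrays, against 10.1% of all probe sets in either direction and 6.06% in the lower direction. Cdh2 was also the 1 member whose lines did not overlap, against 15.3% of all probe sets, so the members' share of 1 in 11 lies near the background. The median difference over the 10 genes, with Zic5 by its brighter probe set, was -0.03, against 0.00 over all probe sets. Of the 11 probe sets 4 had a positive and 7 a negative difference. The spread inside each line differed between members: it was wide for Otx2, Zic2, Foxd3 and 1 Zic5 probe set and narrow for Fgf5, Pou3f1, Sox3, Sox4, Sall2 and Cdh2.

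**Figure D1:**
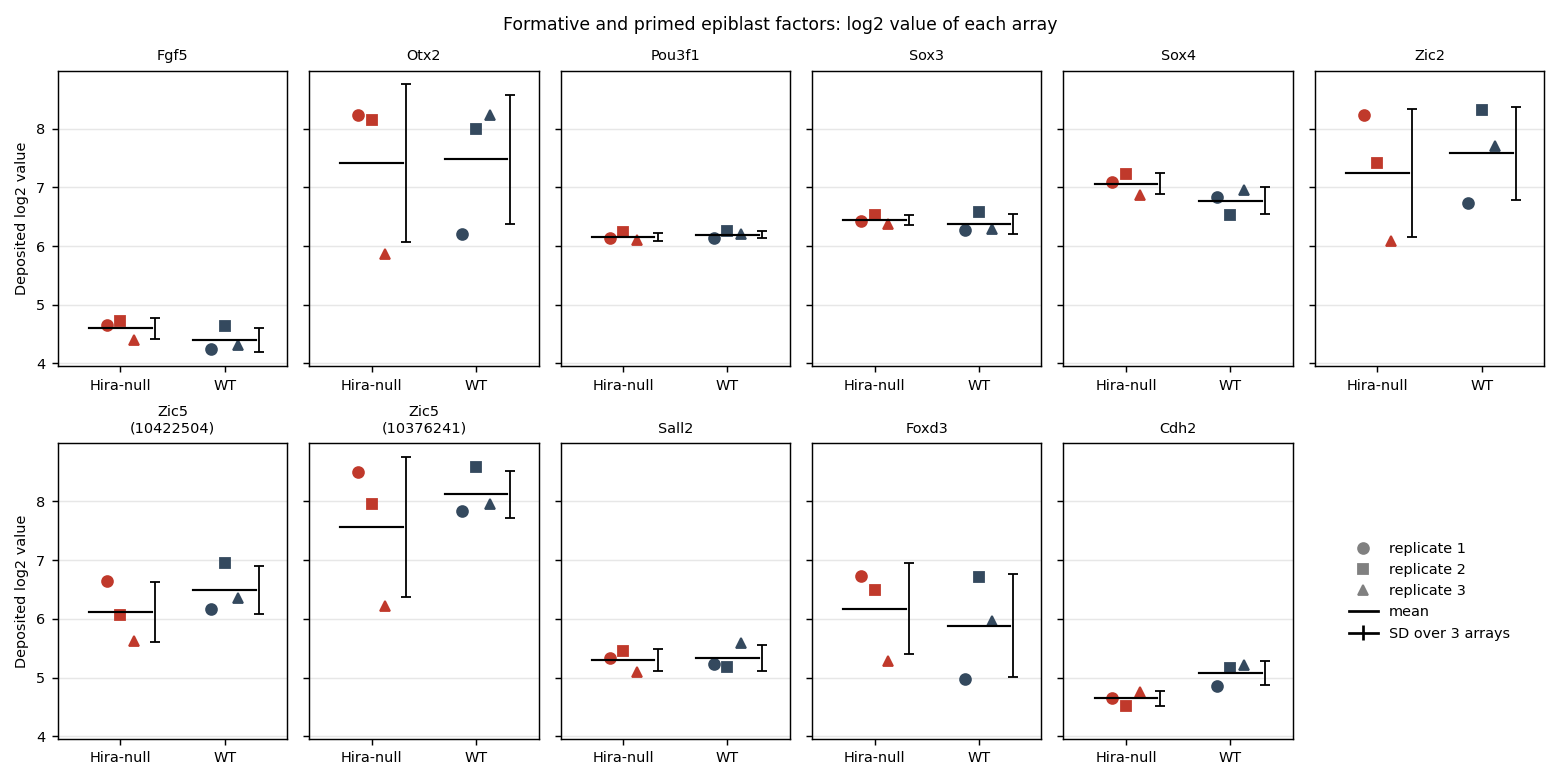
Deposited log2 value (vertical axis) of each of the 11 probe sets on each array, Hira-null at the left and WT at the right of each panel; symbols give the replicate number, the line the mean and the bar at its side the SD over 3 arrays. Otx2, Zic2 and Foxd3 are low in Hira-null replicate 3 and WT replicate 1, and Cdh2 is the panel in which the lines do not overlap.

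Otx2, the homeodomain factor that helps ES cells out of the naive state and later patterns the forebrain, had the widest spread of the 10 genes. It read 8.24, 8.14 and 5.86 in the Hira-null arrays, and 6.21, 7.99 and 8.23 in the WT arrays. So 4 arrays, with both lines among them, lay between 7.99 and 8.24, and 1 array of each line lay about 2 units below: replicate 3 of Hira-null and replicate 1 of WT. Inside the Hira-null line the highest and lowest arrays were 5.21-fold apart, and inside WT 4.06-fold. The line means were 7.41 ± 1.35 in Hira-null and 7.48 ± 1.10 in WT (SD, n = 3 each), a difference of -0.06 (SE 0.77, limma adjusted p = 0.992). The 95% interval, from -1.88 to 1.75, holds large differences in either direction. With Hira-null replicate 3 and WT replicate 1 both left out, the difference was 0.08 and the interval shrank to -0.30 to 0.46. Since these are the 2 arrays with the low Otx2 values, a narrower interval follows from leaving them out. It cannot show that the lines agree.

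Zic2, a zinc-finger factor of the epiblast and the dorsal neural tube, spread in a similar way. It read 8.24, 7.41 and 6.08 in the Hira-null arrays and 6.73, 8.31 and 7.70 in the WT arrays. The lines overlapped fully at the top, at 8.24 in Hira-null and 8.31 in WT, and the lowest value of each line came from the same 2 arrays as for Otx2. The difference was -0.34 (SE 0.60, limma adjusted p = 0.916, interval -1.76 to 1.08), and it was 0.25 without Hira-null replicate 3. Foxd3, a forkhead factor needed to keep the epiblast and, later, the neural crest, read 6.73, 6.50 and 5.29 in the Hira-null arrays, against 4.97, 6.72 and 5.96 in the WT arrays. Again the same array of each line was lowest. The difference of 0.29 (SE 0.52, adjusted p = 0.916 with limma) turned to -0.17 without WT replicate 1 and was 0.73 without Hira-null replicate 3.

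Zic5, a neighbour of Zic2 on chromosome 14 with roles in neural crest and brain, gave 2 readings that disagree in size. Probe set 10422504 read 6.65, 6.07 and 5.62 in the Hira-null arrays and 6.16, 6.95 and 6.36 in the WT arrays, a difference of -0.38 (SE 0.31). Probe set 10376241 read 8.51, 7.96 and 6.22 in the Hira-null arrays and 7.84, 8.58 and 7.95 in the WT arrays, a difference of -0.56 (SE 0.56). Neither passed (limma adjusted p = 0.764 for the first and 0.824 for the second). The gap between the 2 probe sets was 1.59 to 1.89 on 5 arrays and 0.60 on Hira-null replicate 3. The annotation gives both to Zic5, but the identifier of 10376241 lies in a run of chromosome 11 genes (10 of its 10 nearest named neighbours, with Gria1 next to it), whereas 9 of 10 neighbours of 10422504 lie on chromosome 14. Probe positions were not examined, so which transcript 10376241 reads is not settled here. The same neighbour check placed every other member among genes of its own chromosome, with at least 9 of 10 neighbours there.

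**Figure D2:**
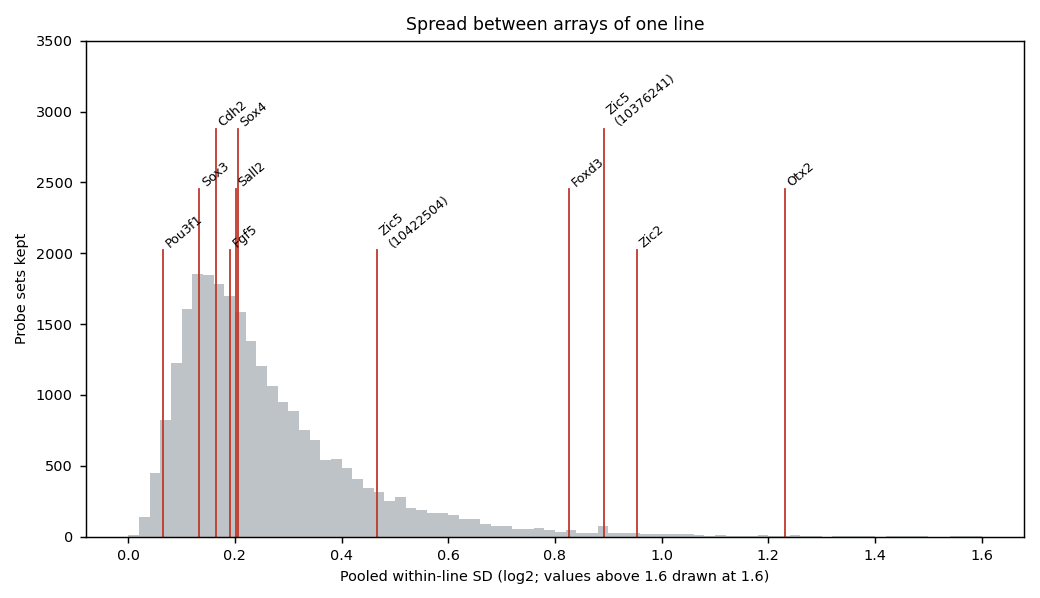
Histogram of the pooled SD between arrays of one line (log2, horizontal axis) over 25142 probe sets (number of probe sets, vertical axis), with red lines at the 11 probe sets of the epiblast factors. Otx2, Zic2, Foxd3 and Zic5 probe set 10376241 lie beyond the 95th percentile of 0.61, and the median over all probe sets is 0.21.

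The pooled SD inside the lines puts these values on a common scale, as the histogram of this SD shows. It was 1.23 for Otx2, 0.95 for Zic2, 0.89 for Zic5 probe set 10376241 and 0.83 for Foxd3, where the median over all kept probe sets was 0.21 and the 95th percentile 0.61. So 4 of the 11 probe sets lay above that percentile, with Otx2 at the 99.9th percentile, while the median of all 11 was 0.21, like that of all probe sets. For Zic5 this rests on the probe set whose transcript is not settled. Genes of other lists also lay above the 95th percentile, such as Spry4 at 1.42, Lef1 at 0.84, Gbx2 at 0.82 and Etv4 at 0.75. They were named after their values were seen, and a wide spread is not particular to the members. Zic5 probe set 10422504 stood at 0.47. The other 6 genes ranged from 0.07 for Pou3f1 to 0.21 for Sox4, at or below the median of all probe sets. The same 2 arrays were often the lowest of their line, though by gaps of very different size. In 8 of 11 probe sets Hira-null replicate 3 was the lowest of its line and WT replicate 1 the lowest of its own, against 20.0% of all kept probe sets. Both Zic5 probe sets are among the 8, and with 1 probe set per gene the count was 7 of 10. For Sox3, Pou3f1 and Fgf5, which are among the 8, the gaps were small, since their whole range over 6 arrays was 0.30, 0.14 and 0.49. For Zic5 probe set 10376241, WT replicate 1 was lowest by little, at 7.84 against 7.95 in WT replicate 3.

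The FGF ligand Fgf5, switched on as cells leave the naive state, stayed within a narrow band. It read 4.66, 4.73 and 4.40 in the Hira-null arrays and 4.24, 4.63 and 4.31 in the WT arrays. Every value lay below the array medians of 4.93 to 5.02, and detection above background was not tested. The lines overlapped, and the difference of 0.20 (SE 0.16, limma adjusted p = 0.755) had an interval of -0.18 to 0.58. Pou3f1, also called Oct6, a POU factor of the epiblast and later of glia and neural progenitors, read 6.13, 6.24 and 6.11 in Hira-null arrays and 6.13, 6.25 and 6.20 in WT arrays. With a difference of -0.03 and an interval of -0.31 to 0.24, this was the tightest of the 11 estimates. The arrays in which Otx2 was low did not stand apart for Pou3f1, at 6.11 in Hira-null replicate 3 and 6.13 in WT replicate 1.

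Of the SOX genes, which encode HMG-box DNA-binding proteins, Sox3 belongs with Sox1 and Sox2 and acts in epiblast and neural progenitors, and Sox4 belongs with Sox11 and Sox12 and acts in many progenitors, neurons among them. Sox3, on chromosome X, read 6.43, 6.53 and 6.37 in the Hira-null arrays and 6.28, 6.58 and 6.29 in the WT arrays, a difference of 0.06 (SE 0.14, limma adjusted p = 0.936). Sox4 read 7.09, 7.23 and 6.87 in the Hira-null arrays and 6.84, 6.52 and 6.96 in the WT arrays. Only WT replicate 3 lay within the Hira-null values of Sox4, and the difference of 0.29 (SE 0.17) did not pass (limma adjusted p = 0.635, interval -0.11 to 0.69). Leaving out 1 array moved it to between 0.16 (without WT replicate 2) and 0.39 (without Hira-null replicate 3), and it passed in neither refit. In the refit without Hira-null replicate 3 the lines no longer overlapped, as for 26.4% of all probe sets there. Sall2, a spalt-type zinc-finger factor, read 5.34, 5.46 and 5.10 in the Hira-null arrays against 5.23, 5.18 and 5.58 in the WT arrays, and its difference was -0.03 (SE 0.17).

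Cdh2 encodes N-cadherin, the adhesion protein that epiblast cells gain as they pass through gastrulation and that neural and mesenchymal cells keep. It was the member with the smallest p. The Hira-null arrays read 4.65, 4.52 and 4.76 and the WT arrays 4.85, 5.16 and 5.22, so all Hira-null values lay below all WT values, with the closest pair 0.09 apart. All Hira-null values and the lowest WT value lay below the array medians of 4.93 to 5.02, and detection above background was not tested. The means were 4.64 ± 0.12 in Hira-null and 5.08 ± 0.20 in WT (SD, n = 3 each), a difference of -0.43 (SE 0.15, interval -0.79 to -0.08), or 1.35-fold lower. This did not pass over all probe sets (limma unadjusted p = 0.0228, adjusted p = 0.409), and over the 14 alternatives that tested it the adjusted p ran from 0.178 to 0.751 and the difference from -0.61 to -0.36. Unlike Otx2, Zic2 and Foxd3, its value in Hira-null replicate 3 was the highest of its line.

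**Figure D3:**
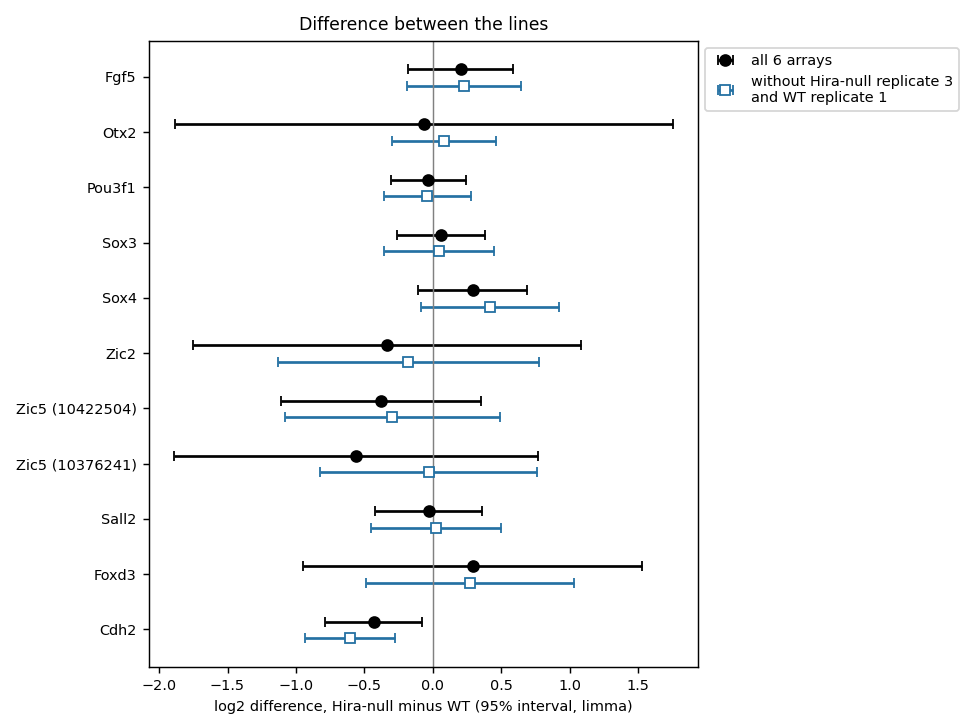
Difference between the lines (log2, Hira-null minus WT, horizontal axis) for the 11 probe sets, with 95% intervals from limma, for all 6 arrays (filled circles) and without Hira-null replicate 3 and WT replicate 1 (open squares). Otx2, Zic2, Zic5 probe set 10376241 and Foxd3 have the widest intervals with all arrays, and the Cdh2 interval, not adjusted for the number of probe sets, does not reach 0. The arrays left out hold the lowest value of each line for Otx2, Zic2 and Foxd3, so narrower intervals there follow from the choice.

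Other cadherin genes and markers of cells that carry N-cadherin were read beside Cdh2. The epithelial cadherin gene Cdh1 read 10.08, 9.95 and 10.25 in the Hira-null arrays and 10.09, 9.87 and 9.87 in the WT arrays, which overlap. P-cadherin, encoded by Cdh3 on chromosome 8, read 7.46, 7.47 and 7.71 in Hira-null arrays and 8.09, 8.01 and 7.95 in WT arrays. That is a difference of -0.47 without overlap, and it did not pass (limma adjusted p = 0.318). Of 15 listed catenin and cadherin partner genes, 12 were kept and 0 passed in either direction, with a median difference of 0.11 against 0.00 over all probe sets. At an unadjusted p under 0.05 there was 1, Cdh3, against 10.1% of all probe sets. The genes with the next smallest p were Twist1 (-0.31), Epcam (0.27) and Ctnnd2 (0.36).

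Of 12 listed neural markers, 9 were kept (Dcx and Fabp7 were among those not kept), and their mean log2 level was 5.34 to 5.52 in the Hira-null arrays and 5.69 to 5.77 in the WT arrays. Of the 9, 6 were lower and 3 higher in Hira-null, the median difference was -0.07, and the list medians of the arrays overlapped between the lines. None of the 9 passed (limma), and 2 had an unadjusted p under 0.05, both lower in Hira-null, against 6.06% of all probe sets lower. Pax6, the eye and forebrain factor, read 4.96, 4.75 and 4.37 in Hira-null arrays and 5.80, 6.01 and 5.89 in WT arrays (difference -1.21, adjusted p = 0.220). Nes, the intermediate filament gene of neural progenitors, stood at -0.87 (adjusted p = 0.409), Neurod1 at -0.61 and Sox1 at 0.20. Fibroblast and feeder markers had 7 of 12 kept (not Postn, Dcn, Lum, S100a4 or Fbn1), with a mean level of 6.33 to 6.77 in Hira-null and 6.61 to 7.16 in WT arrays. Their median difference was -0.40, and their genes went in both directions. Thy1, a surface glycoprotein gene and the one with the smallest p, read 6.46, 6.75 and 7.17 in Hira-null and 6.09, 6.09 and 5.93 in WT arrays (difference 0.76), while the intermediate filament gene Vim averaged 9.43 in Hira-null and 10.04 in WT arrays. The lines overlapped for neither gene, and neither passed (limma adjusted p = 0.285 for Thy1 and 0.424 for Vim). Neural crest markers, 7 of 8 kept without Snai2, overlapped at 4.42 to 4.66 in Hira-null and 4.54 to 4.64 in WT arrays. Those mean levels were below the array medians of 4.93 to 5.02. The part of such cells in the Cdh2 difference was not tested, and fewer cells of a type and less RNA per cell cannot be told apart in these bulk samples.

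Relatives of the members within their gene families were measured as well. Of 22 listed, 20 were kept (Zic1 was among those not kept) and 0 passed in limma. Only 1, Cdh3, had an unadjusted p under 0.05, against 10.1% of all probe sets. The median difference was 0.01. Among relatives of the ZIC and SOX genes, Zic4 stood at -0.11, Sox1 at 0.20, Sox2 at -0.11, Sox11 at -0.33 and Sox12 at 0.23. Zic4 read 3.91 to 4.11 over the arrays, below the array medians. Its probe set identifier lies between those of Nanog (chromosome 6) and Tbx6 (chromosome 7), though Zic4 is on chromosome 9. Which transcript that probe set reads is not settled here. Otx1 read 4.35 to 4.45 in Hira-null and 4.39 to 4.43 in WT arrays, without the spread of Otx2. These values lay below the array medians of 4.93 to 5.02, so they cannot tell whether Otx1 shares that spread. The Pou3f1 relatives Pou3f2, Pou3f3 and Pou3f4 had differences of 0.02, 0.01 and 0.09. Pou3f2, at 4.32 to 4.81, and Pou3f4, at 3.94 to 4.33, also lay below the array medians, so their small differences say little. Among spalt genes, Sall4 stood at 0.30 and Sall1, on chromosome 8, at -0.47, and neither passed. Sall1 was at 7.73 in Hira-null replicate 3, the lowest of all 6 arrays, and Sox2 was also lowest there, at 9.44 against 10.09 to 10.41 on the other arrays.

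Other genes of the formative and primed states gave a like picture of no called line difference and low values in the same 2 arrays. Of 20 listed, 19 were kept and 0 passed in limma in either direction. At an unadjusted p under 0.05 there was 1, against 10.1% of all probe sets, and the median difference was 0.21. Of the 19, 12 were higher and 7 lower in Hira-null. The member of this list with the smallest p was Cldn6, an epithelial claudin gene, at 8.64, 8.52 and 9.04 in the Hira-null arrays and 8.39, 7.33 and 7.40 in the WT arrays (difference 1.03, adjusted p = 0.349). Grhl2, an epithelial transcription factor, followed at 0.45, the secreted WNT modulator Sfrp2 at -0.46 and the ligand Nodal at 0.32. In 11 of the 19, Hira-null replicate 3 and WT replicate 1 were both the lowest of their line, where this holds for 20.0% of all kept probe sets. The WNT effector Lef1, for example, read 6.41, 6.63 and 5.10 in Hira-null arrays and 4.69, 5.83 and 6.34 in WT arrays. The de novo DNA methyltransferase gene Dnmt3b read 8.13, 8.35 and 7.45 in Hira-null arrays and 6.91, 7.65 and 8.17 in WT arrays. Lef1 and Dnmt3b were named for this pattern after their values were seen.

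**Figure D4:**
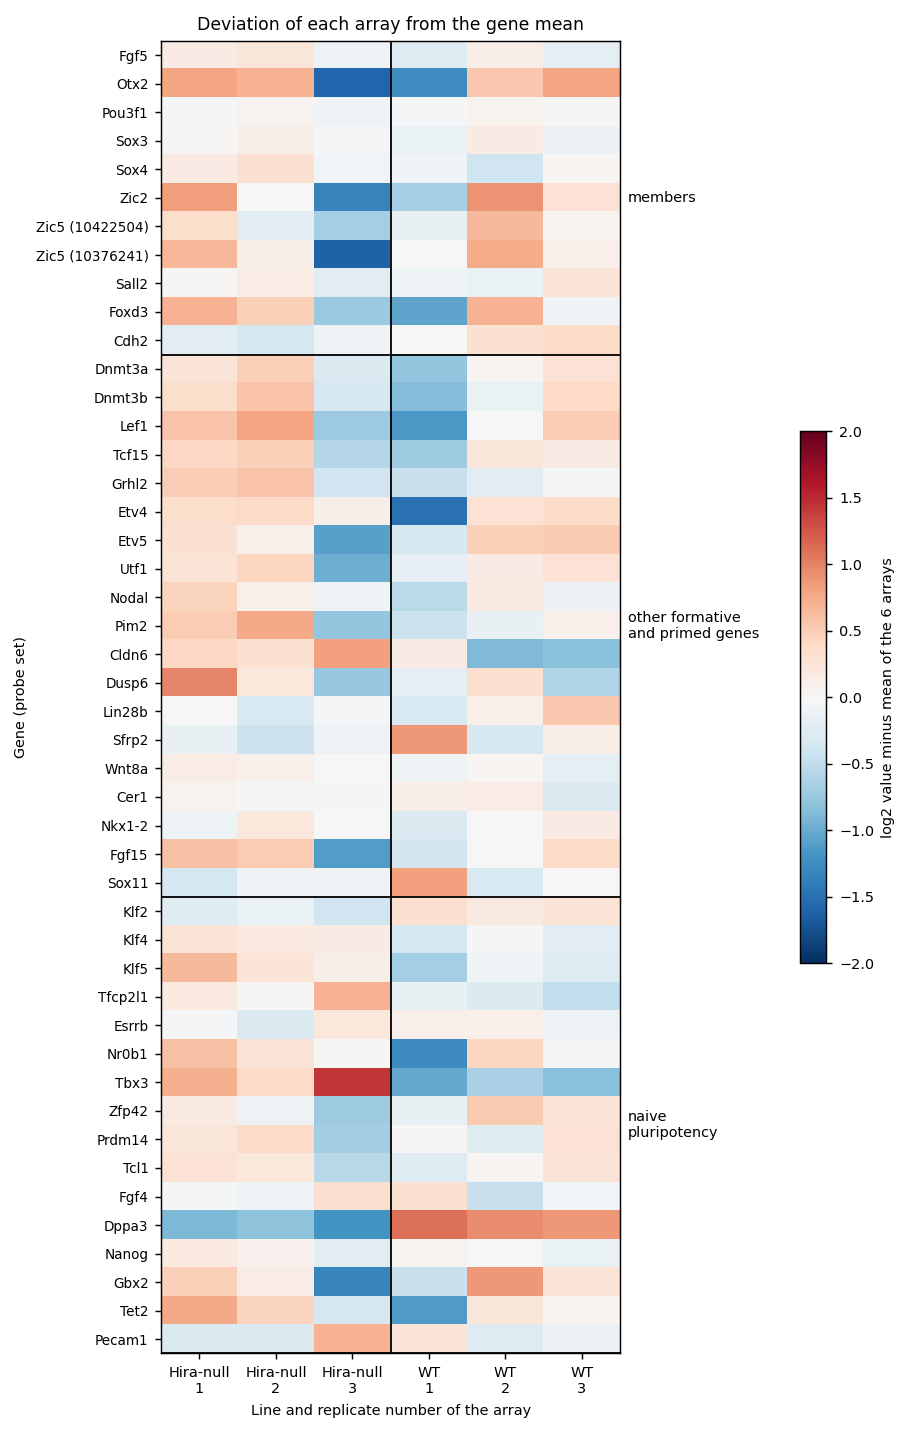
Log2 value of each array minus the mean of the 6 arrays (colour) for the 11 probe sets of the epiblast factors, 19 other formative and primed genes and 16 naive pluripotency genes (rows), with Hira-null arrays in the left and WT arrays in the right columns. Otx2, Zic2, Foxd3 and Lef1 are blue in Hira-null replicate 3 and WT replicate 1, and Dppa3 and Tbx3 divide the lines in opposite directions.

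FGF receptors and feedback genes of the ERK pathway, which drives the exit from the naive state, had 13 of 13 kept. None passed (limma, with 0 at an unadjusted p under 0.05), and the median difference was 0.06. The smallest p belonged to the receptor gene Fgfr2, at -0.56, followed by Fgfr4 at 0.73, where 1 array, Hira-null replicate 3, read 7.01 and the others 4.95 to 5.40. The ETS factor genes Etv4 and Etv5 stood at 0.57 and -0.45. Etv5 has 2 kept probe sets and stands here by the brighter one, 10363901. That identifier lies between those of Nodal and Dusp6, both on chromosome 10, while Etv5 is on chromosome 16. Which transcript 10363901 reads is not settled here. Hira-null replicate 3 and WT replicate 1 were both the lowest of their line in 6 of the 13, against 20.0% of all kept probe sets. Etv4 and Etv5 are among these 6 and also among the 11 formative and primed genes with this pattern, so the counts share genes. Spry4, a feedback inhibitor of the pathway named here after its values were seen, read 10.11, 9.20 and 7.03 in the Hira-null arrays and 7.70, 10.11 and 8.35 in the WT arrays, a range wider than that of Otx2.

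Core and naive pluripotency genes had no called line difference at the probe set with the highest mean. Of 5 core genes, Pou5f1 stood at 0.27, Sall4 at 0.30, Utf1 at -0.18, Sox2 at -0.11 and Nanog at 0.05, and 0 passed in limma (0 at an unadjusted p under 0.05). Of 16 naive genes 16 were kept, 0 passed and 6 had an unadjusted p under 0.05, with 4 higher and 2 lower in Hira-null arrays. Over all probe sets these shares were 10.1% in either direction, 4.06% higher and 6.06% lower. The median difference of the naive genes was 0.06. Dppa3, the germ cell and oocyte factor also known as Stella, read 4.83, 4.93 and 4.53 in Hira-null arrays and 6.83, 6.67 and 6.60 in WT arrays at its brighter probe set (difference -1.94, adjusted p = 0.0526). Tbx3, a T-box factor of naive cells, read 9.34, 9.00 and 10.06 in Hira-null arrays and 7.60, 7.98 and 7.79 in WT arrays (difference 1.68, adjusted p = 0.220). Klf2 and Klf5, Krüppel-like factors of naive cells, stood at -0.52 and 0.68 and did not pass. In 3 of the 5 core and 7 of the 16 naive genes Hira-null replicate 3 and WT replicate 1 were both the lowest of their line. This held for 20.0% of all kept probe sets. Utf1, counted here with the core genes, is also among the 11 formative and primed genes with this pattern.

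Markers of other cell types were also set beside the 2 low arrays. The mean level of trophectoderm markers (6 of 7 kept, not Elf5) was 6.10, 6.02 and 7.20 in the Hira-null arrays and 6.81, 6.30 and 6.19 in the WT arrays, so the arrays with low Otx2 were the highest of each line. Most of that came from the simple keratins, named after their values were seen: Krt18 read 7.31, 7.19 and 10.20 in Hira-null arrays and 9.22, 7.63 and 7.48 in WT arrays. Cdx2, a defining trophectoderm factor, lay at 4.43 to 4.64 in Hira-null and 4.32 to 4.70 in WT arrays and did not follow. Those values lay below the array medians of 4.93 to 5.02, so they cannot tell whether Cdx2 varies with the keratins. Fibroblast and feeder markers were highest in the same arrays of each line, with mean levels of 6.77 in Hira-null replicate 3 and 7.16 in WT replicate 1. Endoderm markers (7 of 10 kept, with Afp and Ttr among those not kept) had mean levels of 5.42, 5.61 and 5.71 in Hira-null and 6.31, 5.97 and 5.86 in WT arrays. Primitive streak and mesoderm markers (7 of 8 kept, not T) were at 4.75 to 4.90 in Hira-null and 4.67 to 4.91 in WT arrays. None of the markers in these 4 lists passed in limma. At an unadjusted p under 0.05, 3 of 7 endoderm markers were lower in Hira-null, 3 of 7 fibroblast markers were lower and 1 higher, and 0 of the trophectoderm, streak and mesoderm markers were either, against 6.06% of all probe sets lower and 4.06% higher. The part of such cells, or of confluence, in the low Otx2, Zic2 and Foxd3 values was not tested.

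For the 3 members with the widest range over the arrays, the genes with the most similar profile were found among 15189 other genes, by the root mean square distance of values centred on each gene's own mean over 6 arrays. For Otx2, with a range of 2.38, they were Platr8 at a distance of 0.27, Trh at 0.31 and Pdzd4 at 0.33, where the median gene lay at 1.02. Trh, the gene for thyrotropin-releasing hormone, read 11.11, 10.78 and 8.12 in Hira-null arrays and 9.03, 11.02 and 10.45 in WT arrays. For Zic2 they were Zfp819 (0.13), Gbx2 (0.18) and Zfp296 (0.23), against a median of 0.82. Gbx2, a homeobox gene of the naive list, read 7.22, 6.89 and 5.44 in Hira-null arrays and 6.30, 7.62 and 7.01 in WT arrays. For Zic5, by probe set 10376241, they were Idi1 at 0.11, Dusp27 at 0.17 and Fam169a at 0.19, against a median of 0.80. Idi1, an enzyme gene of isoprenoid and cholesterol synthesis, read 9.56, 9.02 and 7.04 in Hira-null arrays and 8.90, 9.42 and 8.83 in WT arrays, low in Hira-null replicate 3 alone, as that probe set was. These profiles rest on 6 arrays and are a description.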

How the data were processed

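Expression was measured on 6 arrays, 3 for each line. The authors deposited log2 values, with 2 decimals, for 35557 probe sets; GCRMA, which corrects background and normalizes between arrays, is named per the submitters' processing notes, without a version. Their range, 1.14 to 14.03, shows the log2 scale. The genome build behind them is not given in the sources used here, and no scanner signals were analysed here. Such normalization hides a shift common to most genes. The platform annotation gave 21789 probe sets 1 symbol, 1621 several and 12147 none; symbols were updated by Entrez identifier with a GRCm38.p6 gene table for 21698.

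Probe sets were kept when at least 3 arrays exceeded 3.78, the 30th percentile of all values (25142 kept). Hira-null minus WT was fitted on all 6 arrays with limma 3.58.1 in R 4.3.3 (lmFit and eBayes, no covariate); two-sided p-values were adjusted by Benjamini-Hochberg across kept probe sets, and called under 0.05. A gene was represented by its brightest probe set. Lists were described by counts and medians. From each list the 4 genes with the smallest p could be named, and every member and relative. The members and lists were chosen with earlier results of these data known. The number of arrays limits precision, with a median SE of 0.17. Tested on simulated data for Hira-null minus WT over 25142 probe sets, the fit recovered 33.5% of 200 changes of 1 log2 unit and 86.5% of 200 changes of 2, with 5 wrong calls each, and made 0 calls without changes. Alternatives were 2 filters, 2 normalizations, 2 variance models, arrayWeights, a replicate block, each array left out, and 2 arrays left out together.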

Additional observations from a re-analysis of the deposited data

How the results depend on the processing

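No member was called under any of the 15 refits, and the smallest adjusted p of a member was 0.178 (Cdh2, arrayWeights, limma). The count over all probe sets was 1, and became 2 with the stricter filter, 2 with median centring, 5 with arrayWeights, 0 with the replicate block, 0 without Hira-null replicate 3 and WT replicate 1 together, and 0 to 41 when 1 array was left out, with 41 without Hira-null replicate 2. Members without overlap between the lines numbered 1, then 0 with the stricter filter, which tests neither Cdh2 nor Fgf5, 1 to 3 with 1 array left out and 3 with both arrays left out (Fgf5, Sox4 and Cdh2); with fewer arrays, the share of all probe sets without overlap also grew, to 22.9% to 27.1% and 38.3%. The members' median difference lay between -0.12 and 0.18 with 1 array left out, with 0.18 without Hira-null replicate 3. Leaving out 1 array gave -0.70 to 0.71 for Otx2, -0.84 to 0.25 for Zic2, -1.03 to 0.11 for Zic5 probe set 10376241, -0.65 to -0.13 for Zic5 probe set 10422504, -0.17 to 0.73 for Foxd3 and -0.11 to 0.10 for Sall2, and, with no change of sign, 0.13 to 0.32 for Fgf5, 0.01 to 0.16 for Sox3 and 0.16 to 0.39 for Sox4. Otx2 also turned positive with arrayWeights (0.069) and without both arrays (0.08), and Sall2 without both (0.02). Cdh2 kept its direction under all 14 refits that tested it. Using the other Zic5 probe set, an alternative chosen after seeing the data, left the median at -0.03. Arrays with the same replicate number did not deviate together over all kept probe sets (correlations of -0.34, 0.17 and -0.10 for numbers 1, 2 and 3). The numbers were therefore not used as a pairing, though 3 arrays a line cannot exclude one. The replicate block gave 0 called members, as without it. Of all such correlations between the lines, the highest was 0.44, for Hira-null replicate 3 with WT replicate 1. With 3 arrays a line and this spread, differences of the size seen in Otx2, Zic2 or Foxd3 could not be resolved.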
